A study of Mus musculus with 12 samples.

Results

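The 44 genes described here mark macrophages and monocytes, the phagocytes of the innate immune system, in bulk RNA-seq of mouse kidney. They were taken by gene symbol from files that list 40213 symbols, and each of the 44 was found. Of these, 43 had enough counts to be tested and Timd4 did not. Kidneys of C57BL/6 mice were compared in 3 groups of 4 libraries. Control mice received a normal diet and intraperitoneal saline. Mice with chronic kidney disease (CKD) received a 2% adenine diet and intraperitoneal saline. The third group received adenine in the diet and intraperitoneal colchicine at 0.3 mg/kg per day, and its 4 libraries are labelled 2, 3, 4 and 5% adenine for replicates 1, 2, 3 and 4. For replicates 2, 3 and 4, colchicine and the labelled adenine content therefore cannot be told apart. Replicates are described as biological, but the labels name no animals, their age or the length of treatment, and p-values reflect the spread among these libraries, which may be partly technical.

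A healthy kidney holds a network of resident macrophages between its tubules, which depend on the growth factor receptor CSF1R and carry the surface protein F4/80 (gene Adgre1). After injury, blood monocytes enter through the chemokine receptor CCR2 and mature into further macrophages, some of which take up lipid and debris and express TREM2 and GPNMB. Dietary adenine forms crystals in the tubules and causes inflammation and scarring, and colchicine is an anti-inflammatory compound that binds tubulin. The transcription factor PU.1 (gene Spi1) is required for the macrophage lineage. The genes were grouped by role into core identity, resident and perivascular, recruited monocyte, lipid-associated, Fc receptor and adaptor, C-type lectin, phagocyte oxidase, pan-leukocyte, activation enzyme and dead-cell uptake genes. Several are shared with other cells, since neutrophils carry Itgam, dendritic cells Itgax, B cells Fcgr2b, lymphatic endothelium Lyve1, and fibroblasts Axl. In bulk tissue, fewer cells of a type and less RNA per cell cannot be told apart.

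Library totals ranged from 22200909 to 38253100 counts. Values below are counts per 1000000 (CPM) after scaling by TMM (trimmed mean of M-values), listed in the order of replicates 1, 2, 3 and 4. Mitochondrially encoded transcripts took 40.8 to 45.9% of counts in control, 16.5 to 17.02% in CKD and 14.3 to 21.3% with colchicine. The 8 proximal tubule markers summed to 9337 ± 325 CPM in control, the highest of the 3 groups, and to 873 ± 103 CPM in CKD (mean ± SD, n = 4). Colchicine replicate 1 stood apart from the other 3 colchicine libraries for several members, and values without it are given where they differ most.

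Promoters were available for 31 of the 44 genes, with 36 windows from 250 bases before to 50 bases after a transcription start (RefSeq, GRCm38.p6). The core motif GAGGAAG, which PU.1 can bind, was searched on both strands as exact letters. It was present in windows of 10 of the 31 genes (32.3%) and of 15.4% of the 27025 genes with any window. A match describes letters only and is no evidence of binding. Promoters of 4 members from different roles are printed 5′ to 3′ on the strand of the gene, with the motif in capitals, to show where it lies.
Trem2, lipid-associated, chr17:48346151-48346450, plus strand: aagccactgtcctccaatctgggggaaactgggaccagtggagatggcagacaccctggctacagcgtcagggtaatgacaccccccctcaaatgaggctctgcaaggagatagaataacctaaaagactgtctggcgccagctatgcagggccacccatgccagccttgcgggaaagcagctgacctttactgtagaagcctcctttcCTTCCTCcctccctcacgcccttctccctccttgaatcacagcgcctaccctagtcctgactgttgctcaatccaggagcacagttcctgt
Fcgr1, Fc receptor, chr3:96293920-96294219, minus strand: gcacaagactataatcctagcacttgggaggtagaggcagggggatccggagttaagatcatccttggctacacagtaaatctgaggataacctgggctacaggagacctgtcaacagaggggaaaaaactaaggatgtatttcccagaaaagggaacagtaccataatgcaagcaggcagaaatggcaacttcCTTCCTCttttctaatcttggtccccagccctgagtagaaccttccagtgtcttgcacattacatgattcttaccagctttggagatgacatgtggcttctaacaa
Itgam, recruited monocyte, chr7:128062390-128062689, plus strand: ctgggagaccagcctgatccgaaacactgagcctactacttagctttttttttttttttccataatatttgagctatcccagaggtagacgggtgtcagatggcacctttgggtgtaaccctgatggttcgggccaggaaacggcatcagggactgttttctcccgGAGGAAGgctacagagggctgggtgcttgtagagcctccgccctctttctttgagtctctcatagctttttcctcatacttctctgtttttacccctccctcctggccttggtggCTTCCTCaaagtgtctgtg
Mrc1, resident, chr2:14229164-14229463, plus strand: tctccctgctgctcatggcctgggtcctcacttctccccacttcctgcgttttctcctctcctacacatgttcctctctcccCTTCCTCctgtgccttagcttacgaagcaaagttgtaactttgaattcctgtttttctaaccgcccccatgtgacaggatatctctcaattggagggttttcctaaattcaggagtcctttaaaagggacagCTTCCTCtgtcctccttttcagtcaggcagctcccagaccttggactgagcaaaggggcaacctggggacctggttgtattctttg
In Trem2 and Fcgr1 the motif reads on the opposite strand (as CTTCCTC) and begins 41 and 56 bases before the start. Itgam holds it on the strand of the gene 84 bases before the start and on the opposite strand from base 32 after it, and Mrc1 holds it on the opposite strand 168 and 36 bases before the start. The coordinates belong to GRCm38.p6 and not to GRCm39, the build named for the counts.

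The comparison of CKD with control asks how the macrophage and monocyte genes changed with adenine. The 44 genes together summed to 384 ± 18.2 CPM in control and 4424 ± 143 CPM in CKD (mean ± SD, n = 4). With calls made at an adjusted p below 0.05 in edgeR, 42 of the 43 tested genes rose and none fell, against 34.1% of all 17841 genes tested that rose and 33.4% that fell. DESeq2 also called 42 higher and 0 lower, and limma-voom 41 and 0, Arg1 being the other gene. The median log2 fold change of the 43 genes was 4.21, against 0.04 over all genes. In 42 genes every CKD library lay above every control library, which held for 33.2% of all genes, and in none was every CKD library below, which held for 33.0%. Of the 43, 10 passed the count filter only through the adenine-fed libraries, so for them a difference was built into the filter. These 10 were Ms4a4c, Chil3, Trem2, Gpnmb, Fcgr1, Clec4d, Clec4e, Clec4n, Ncf4 and Arg1. The other 33 passed the filter on the control libraries alone, and 32 of these rose. Leaving out any 1 library gave 42 again. Scaling by library totals only moved the median of all genes to 1.05, where 13197 of all genes were higher and 1850 lower, against 6076 and 5952 with TMM, and 42 members were again higher.

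**Figure D1:**
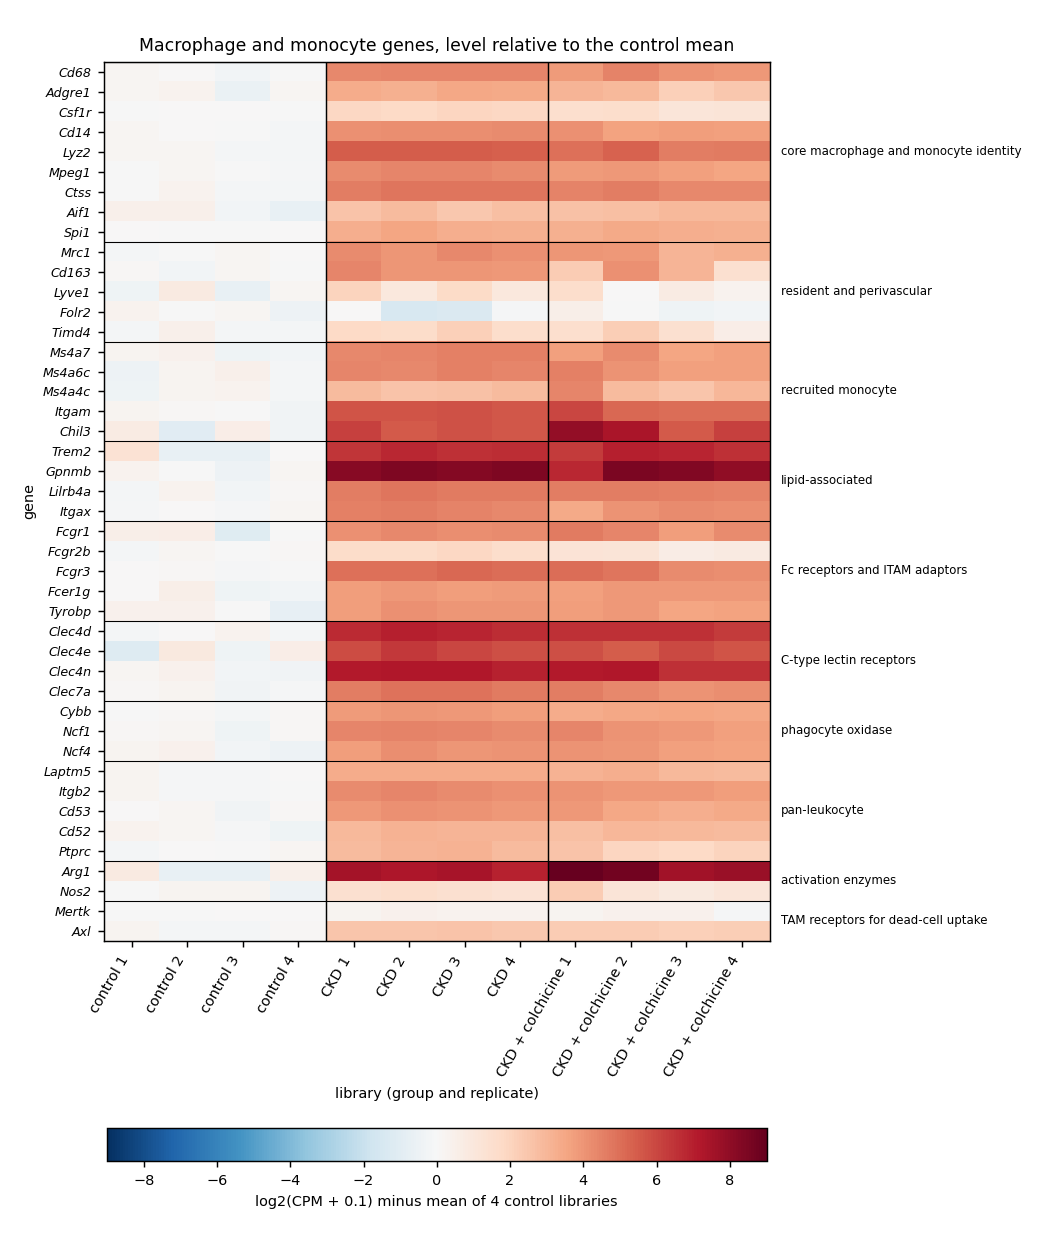
Level of the 44 genes (rows, by role) in the 12 libraries (columns), as log2(CPM + 0.1) minus the mean of the 4 control libraries. The CKD and colchicine libraries are above control for nearly every gene, while Folr2 is not above control in CKD and Mertk only slightly. Colchicine replicate 1 differs from its group in Gpnmb and Arg1, and Chil3 is higher in colchicine replicates 1 and 2 than in 3 and 4.

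Core identity genes rose in all 9 cases, by log2 fold changes from 1.85 to 5.45. Csf1r, the receptor for the macrophage growth factors CSF1 and IL-34, stood at 37.4, 40.8, 39.2 and 38.7 CPM in control, 141, 136, 148 and 139.8 in CKD and 109.9, 116, 83.6 and 87.6 with colchicine. The CKD libraries were all above control, 3.61-fold on average (log2 1.85 ± 0.10, SE, edgeR adjusted p = 2.61e-10), the smallest rise of the group. Adgre1, which encodes F4/80, stood at 4.49, 4.89, 2.60 and 4.46 CPM in control, 40.4, 37.4, 46.1 and 43.5 in CKD and 34.8, 30.5, 18.2 and 22.0 with colchicine. Its CKD and control libraries did not overlap, with a log2 fold change of 3.33 ± 0.22. Cd68, a lysosomal glycoprotein of phagocytes, stood at 6.88, 6.21, 5.07 and 5.80 CPM in control, 122, 126, 125 and 127 in CKD and 87.3, 136, 101 and 91.97 with colchicine, with CKD 20.8-fold above control (log2 4.38 ± 0.14). Lyz2, the lysozyme of myeloid cells, showed the largest rise of the group and stood at 22.3, 21.9, 17.5 and 16.9 CPM in control, 856, 865, 877 and 832 in CKD and 602, 784, 471 and 494 with colchicine. The pore-forming protein gene Mpeg1 rose by 4.32 ± 0.11 on the log2 scale, the protease Ctss by 4.77 ± 0.12, the endotoxin co-receptor Cd14 by 4.21 ± 0.12, Spi1 by 3.35 ± 0.10 and Aif1, which encodes the actin-binding protein IBA1, by 2.59 ± 0.19.

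Resident and perivascular markers differed in their calls, with 3 of the 4 tested higher. Mrc1, the mannose receptor, stood at 4.84, 5.45, 6.23 and 5.80 CPM in control, 108, 88.7, 113 and 98.3 in CKD and 89.3, 83.8, 47.4 and 52.4 with colchicine, and rose 18.3-fold in CKD. Cd163, the haemoglobin scavenger receptor, stood at 0.816, 0.611, 0.822 and 0.696 CPM in control, 17.2, 13.0, 13.2 and 12.4 in CKD and 3.91, 14.6, 6.93 and 2.19 with colchicine, with CKD higher by 4.25 ± 0.58 on the log2 scale (edgeR adjusted p = 3.48e-05). Both were far above control in each CKD library. Lyve1, the hyaluronan receptor, stood at 0.758, 1.88, 0.616 and 1.16 CPM in control, 4.47, 2.03, 3.54 and 2.07 in CKD and 3.31, 1.04, 1.79 and 1.29 with colchicine, and its rise was small, with the lowest CKD library just above the highest control library (log2 1.42 ± 0.43, edgeR adjusted p = 0.00842). Folr2, folate receptor beta, stood at 1.87, 1.48, 1.71 and 1.10 CPM in control, 1.55, 0.499, 0.566 and 1.43 in CKD and 2.23, 1.51, 1.13 and 1.25 with colchicine. It was the single tested member that was not called (log2 -0.60 ± 0.38, edgeR adjusted p = 0.174), and the groups overlapped. Under library totals only its log2 fold change was 0.42, so its sign depends on the scaling. Timd4, a receptor for phosphatidylserine on dying cells, had 1 count in all of control and 36 in CKD, a ratio of 19.9 with a 95% exact binomial interval of 3.35 to 806 that covers counting error only.

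Recruited monocyte genes rose in all 5 cases, though Chil3 and Ms4a4c passed the count filter only through the adenine-fed libraries. Itgam, the integrin alpha M chain (CD11b), stood at 1.69, 1.58, 1.37 and 1.16 CPM in control, 76.5, 76.0, 83.1 and 73.9 in CKD and 98.7, 55.0, 50.3 and 49.5 with colchicine, and CKD was 53.0-fold above control (log2 5.73 ± 0.26). Chil3, a chitinase-like protein of monocytes and alternatively activated macrophages, stood at 0.233, 0, 0.205 and 0.0580 CPM in control, 14.2, 9.08, 10.4 and 9.70 in CKD and 46.9, 32.9, 9.21 and 14.1 with colchicine, with 8 counts in all of control (log2 6.48 ± 0.90). Ms4a4c, a tetraspan membrane protein gene, stood at 0.291, 0.509, 0.548 and 0.348 CPM in control, 3.62, 2.92, 3.10 and 3.505 in CKD and 10.9, 3.65, 2.76 and 4.00 with colchicine, and rose by 2.95 ± 0.47 on the log2 scale. Its relatives Ms4a7 and Ms4a6c rose by 4.496 ± 0.19 and 4.43 ± 0.22. Genes of the Ms4a, Clec4, Fcgr and Lilrb families resemble their neighbours in sequence, and the assignment of reads that fit more than 1 of them is uncertain.

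All 4 lipid-associated macrophage genes rose. Gpnmb, a transmembrane glycoprotein of lysosome-rich macrophages, stood at 0.758, 0.560, 0.411 and 0.696 CPM in control, 202, 237, 215 and 232 in CKD and 78.0, 246, 225 and 173 with colchicine. All CKD libraries exceeded every control library, and the log2 fold change was 8.49 ± 0.43. Gpnmb and Trem2 are among the 10 genes that passed the count filter only through the adenine-fed libraries. Trem2, a receptor for lipids, stood at 0.291, 0, 0 and 0.0580 CPM in control, 13.6, 17.6, 15.1 and 15.3 in CKD and 12.6, 20.1, 18.4 and 14.7 with colchicine, with 6 counts in all of control (log2 7.39 ± 0.38). Of these, 5 lay in control replicate 1, and without that library the log2 fold change was 9.35. Itgax, the integrin alpha X chain (CD11c), stood at 2.22, 2.55, 2.26 and 2.72 CPM in control, 57.3, 60.2, 56.1 and 50.5 in CKD and 27.0, 41.0, 49.3 and 46.3 with colchicine, and rose 22.9-fold. Lilrb4a, an inhibitory receptor, rose 26.0-fold, from 4.29 ± 0.815 to 112 ± 7.26 CPM (mean ± SD, n = 4).

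Receptors that sense antibodies and microbial sugars rose throughout. For Fcgr1, Clec4n, Clec4d and Clec4e, which passed the count filter only through the adenine-fed libraries, a difference was built into the filter. Among Fc receptors, the activating Fcgr3 rose by 5.04 ± 0.20 and Fcgr1 by 4.17 ± 0.26 on the log2 scale, while the inhibitory Fcgr2b, already at 56.3 ± 5.80 CPM in control, rose by 1.67 ± 0.12 to 179 ± 15.2 CPM (mean ± SD, n = 4). Fcer1g and Tyrobp encode adaptors whose cytoplasmic tails carry the activation motif (ITAM) that links such receptors to the kinase SYK. Fcer1g rose by 3.78 ± 0.15 and Tyrobp by 3.96 ± 0.18. The C-type lectins Clec4n (dectin 2), Clec4d and Clec4e (mincle) had between 7 and 11 counts in all of control and rose by 7.98 ± 0.28, 7.51 ± 0.18 and 6.42 ± 0.32. Clec4e stood at 7.05 without control replicate 2. Clec7a (dectin 1), a receptor for beta-glucan, rose 27.7-fold, from 2.54 ± 0.462 to 71.3 ± 8.75 CPM. The 3 phagocyte oxidase genes rose together, with the catalytic subunit Cybb at 3.86 ± 0.09 and the cytosolic subunits Ncf1 at 4.42 ± 0.16 and Ncf4 at 4.10 ± 0.20. All 5 pan-leukocyte genes rose, the integrin beta 2 chain Itgb2 by 4.27 ± 0.10, Cd53 by 3.99 ± 0.14, the lysosomal Laptm5 by 3.35 ± 0.11, Cd52 by 3.04 ± 0.13 and Ptprc, the CD45 phosphatase, by 2.98 ± 0.16.

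The 2 arginine-consuming enzymes differed widely in the size of their rise. Arg1, arginase 1 of alternatively activated macrophages, stood at 0.175, 0, 0 and 0.116 CPM in control, 27.3, 23.6, 26.8 and 18.5 in CKD and 193, 64.6, 30.01 and 33.8 with colchicine, and its log2 fold change in CKD was 8.28 ± 1.22 on 5 control counts, and 9.13 without control replicate 1. Nos2, the inducible nitric oxide synthase, stood at 1.22, 1.53, 1.57 and 0.928 CPM in control, 3.62, 4.10, 3.72 and 3.33 in CKD and 6.52, 2.97, 2.40 and 2.92 with colchicine, and rose 2.81-fold (edgeR adjusted p = 0.000501). Both had every CKD library above control. Of the receptor tyrosine kinases for dead-cell uptake, Axl stood at 38.5, 27.5, 28.4 and 33.9 CPM in control, 183, 183, 193 and 170.5 in CKD and 158, 157, 144 and 149 with colchicine, and rose 5.68-fold. Mertk stood at 82.3, 81.1, 83.1 and 84.2 CPM in control, 99.99, 108, 105 and 102 in CKD and 95.8, 111, 106 and 78.4 with colchicine, and its rise of 1.26-fold was the smallest among the called members (edgeR adjusted p = 0.0044).

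**Figure D2:**
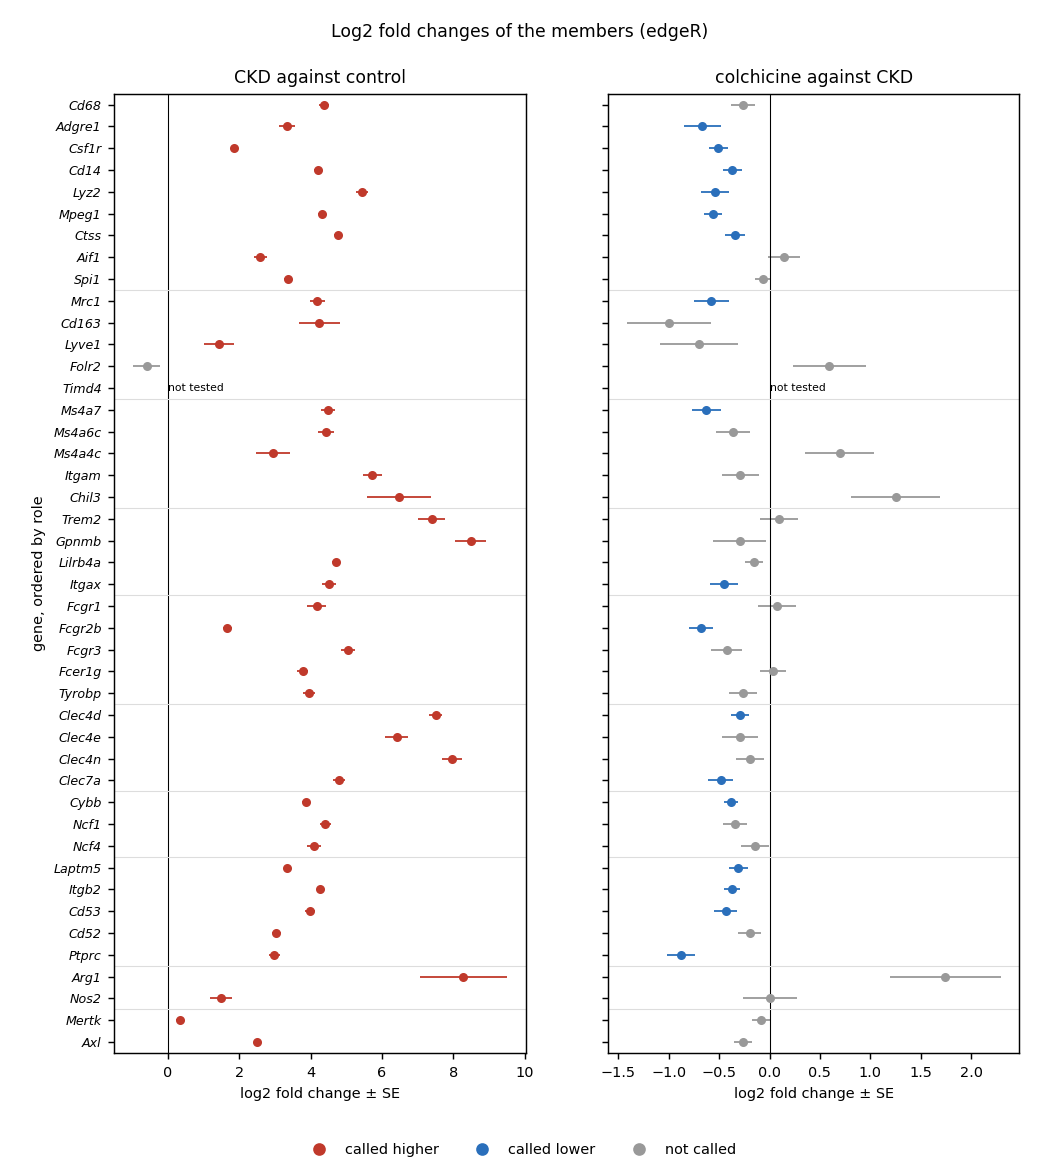
Log2 fold change with its SE (edgeR) for each member, ordered by role, in CKD against control (left) and colchicine against CKD (right, on a narrower axis). On the left 42 genes are called higher, and on the right 17 are called lower and none higher.

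Scaling between libraries drops out of a ratio of 2 genes within a library, so each member was also expressed relative to Csf1r (log2 ratio of counts after adding 0.5). This ratio is given as a description with no test. In CKD, 37 of the 43 other members (86.0%) had every library above every control library, against 5.46% of all genes tested. Most members thus increased by more than Csf1r did. These 37 hold the 10 members that passed the count filter only through the adenine-fed libraries, Gpnmb and Clec4n among them. The 43 include Timd4, which was not tested. Clec4n had 7 counts in all of control, so its control ratio depends on the added 0.5. Gpnmb went from -5.97 ± 0.40 to 0.65 ± 0.14, Clec4n from -8.31 ± 0.46 to -2.40 ± 0.12, Itgam from -4.74 ± 0.24 to -0.87 ± 0.04 and Mrc1 from -2.81 ± 0.14 to -0.48 ± 0.11 (mean ± SD, n = 4). The ratio was lower in every CKD library for 2 members, against 80.2% of all genes. These were Folr2, from -4.66 ± 0.35 to -7.28 ± 0.85, and Mertk, from 1.08 ± 0.07 to -0.44 ± 0.08. Mertk thus stood above Csf1r in control, and Gpnmb above Csf1r in CKD. Which cells held the Mertk and Gpnmb transcripts was not tested. Fcgr2b (0.52 ± 0.11 and 0.34 ± 0.08), Lyve1, Nos2 and Timd4 overlapped between the groups.

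**Figure D3:**
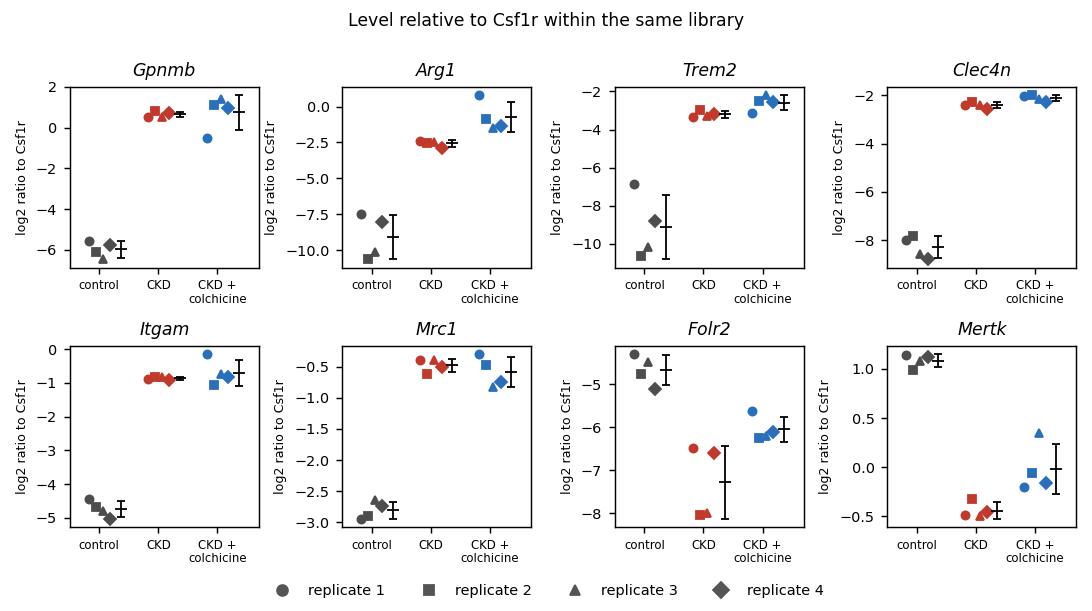
Log2 ratio of 8 members to Csf1r in the same library, with points for the 4 replicates of each group and mean ± SD beside them. Gpnmb, Arg1, Trem2, Clec4n, Itgam and Mrc1 lie higher in both adenine groups than in control, while Folr2 and Mertk lie lower.

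Other genes of the same cells and pathways moved mostly the same way in CKD. Of 12 tested further resident macrophage genes 10 rose and 2 fell, with the complement genes C1qb at 3.81 ± 0.11 and C1qc at 3.89 ± 0.16 on the log2 scale. The 2 that fell, Cd81 and Maf, were not lower under library totals only, where 12 rose. Of 9 further recruited monocyte genes 7 rose, including the coagulation factor F10 (5.43 ± 0.26) and the chemokine receptor Ccr2 (3.11 ± 0.18), while Ly6c2, the classical monocyte marker, stood at 0.61 ± 0.47 (edgeR adjusted p = 0.261). Of 17 further lipid-associated genes 12 rose and 4 fell, against 13 and 2 under library totals only, with the elastase Mmp12 at 7.03 ± 0.19 and the galectin Lgals3 at 2.81 ± 0.10. Several of these, such as Spp1, are also expressed by tubules. Of 19 tested further activation genes 15 rose and 1 fell, with the costimulator Cd86 at 3.58 ± 0.18 and the cytokine Tnf at 4.92 ± 0.28, and Retnla was the gene that fell. The growth factor Csf1 rose by 2.89 ± 0.11, Il34 by 1.46 ± 0.10 and the receptor chain Csf2rb by 4.06 ± 0.16. The TAM ligand Gas6 fell by 0.38, a call absent under upper-quartile scaling and turned to a rise under library totals only. Of 12 genes that signal below these receptors 11 rose, with Vav1 at 3.76 ± 0.13. Of other oxidase genes Rac2 rose by 3.19 ± 0.11, whereas Cyba, which many cell types express, was 2.33 times lower.

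Markers of other cells that share members moved in CKD as well. All 8 tested neutrophil markers of 13 rose, with sums of 2.46 to 4.93 CPM in control and 96.4 to 131 CPM in CKD, with Csf3r at 4.71 ± 0.23 and S100a8 at 5.09 ± 0.29. The 5 others, Ly6g, Mpo, Elane, Camp and Ngp, had too few counts to be tested. The control sums were too low for all 8 to pass the count filter on the control libraries alone. For some of the 8 a rise was therefore built into the filter. How many genes of the other further lists passed in this way was not counted. Of 9 tested T and NK cell markers 8 rose, with Il7r at 5.82 ± 0.23 and Cd4 at 3.02 ± 0.20 (sums of 5.91 to 7.54 and 37.8 to 54.4 CPM), and of 7 tested dendritic cell markers 6 rose, with Ccr7 at 2.86 ± 0.27 and Batf3 at 2.69 ± 0.26 (13.2 to 15.4 and 26.8 to 37.3 CPM). Of 5 tested B and plasma cell markers Cd79b rose (0.58 ± 0.25) and Pax5 fell (-2.08 ± 0.35), and the calls of Cd79b and of Cd8a were lost in 7 and 4 of 8 fits that left out 1 library (edgeR adjusted p = 0.14 without control replicate 1 and 0.0827 without control replicate 4). Of 8 fibroblast and mesangial markers 7 rose, with Col1a1 at 3.75 ± 0.11 and Col1a2 at 3.25 ± 0.11. Of 8 endothelial markers 6 fell, with Kdr at -1.40 ± 0.09 and Tek at -0.70 ± 0.07, though 6 rose and 1 fell under library totals only. Of 6 lymphatic endothelial markers 1 rose, Pdpn (3.44 ± 0.07), and 1 fell, Prox1 (-0.89 ± 0.22), with 5 higher and 0 lower under library totals only. Of the 6 mast cell markers only Ms4a2 could be tested, and it was not called (edgeR adjusted p = 0.0507). All 8 proximal tubule markers fell, with Ggt1 at -3.71 ± 0.15 and Slc34a1 at -4.01 ± 0.19. The part of these cells in the rise of the shared members was not tested.

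The comparison of colchicine with CKD asks whether the drug altered these genes in adenine-fed kidneys. Of the 43 tested members 17 fell (39.5%) and none rose, against 8.24% of all genes that fell and 6.79% that rose. The 2 comparisons share the CKD libraries. At an unadjusted p below 0.05, 23 members were lower and 2 higher, against 3062 lower and 2819 higher of all 17841 genes. DESeq2 called 20 lower and 1 higher, and limma-voom 21 lower and 0 higher. Over all genes, calls in both directions also numbered more with these tools, 3805 with DESeq2 and 3359 with limma-voom, against 2682 with edgeR. With upper-quartile factors 13 members were lower and 1 higher, while the calls over all genes went from 1212 higher and 1470 lower to 1764 and 1185. The median log2 fold change of the 43 genes was -0.30, against 0.03 over all genes, and none of the 17 passed a test against a 2-fold threshold. In 16 members every colchicine library lay below every CKD library (9.29% of all genes), and in 1, Arg1, every library lay above (8.92%). The summed level of the 44 genes was 3462 ± 438 CPM with colchicine (mean ± SD, n = 4), with 3718, 3945, 3136 and 3050.4 CPM in replicates 1, 2, 3 and 4. Each of these 4 sums lay between the sums of the control and the CKD libraries. Leaving out 1 library gave 7 members lower (without CKD replicate 3), 8 (without colchicine replicate 3), 10 (without CKD replicate 2, CKD replicate 4 or colchicine replicate 4) and up to 23 (without colchicine replicate 1, where 19.4% of all genes were lower). In the same order, calls in both directions over all genes numbered 992, 1385, 1561, 1518, 1976 and 6401. With a slope on the labelled adenine, read at 2%, 4 members were lower and 3 higher, against 3.45% and 2.20% of all genes.

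The 7 members Ptprc, Ms4a7, Fcgr2b, Mpeg1, Csf1r, Cybb and Itgb2 were lower in each of the 8 fits that left out 1 library. Ptprc, the pan-leukocyte CD45 gene, stood at 67.0, 75.8, 78.9 and 67.1 CPM in CKD and 54.2, 34.9, 31.2 and 36.8 CPM with colchicine. It showed the largest decrease among called members, with no overlap (log2 -0.88 ± 0.14, edgeR adjusted p = 0.00237). Csf1r fell by 0.51 ± 0.09 (edgeR adjusted p = 0.00486), and its 4 colchicine libraries, at 109.9, 116, 83.6 and 87.6 CPM, all lay below the CKD libraries and above control. The inhibitory receptor Fcgr2b stood at 173, 173, 201 and 167 CPM in CKD and 133, 126, 90.4 and 97.4 CPM with colchicine (log2 -0.68 ± 0.12, edgeR adjusted p = 0.0039). Mpeg1 stood at 219, 251, 243 and 223 CPM in CKD and 168, 178, 150.3 and 137 CPM with colchicine (log2 -0.56 ± 0.09, edgeR adjusted p = 0.00227). For both genes the 2 groups did not overlap. The oxidase subunit Cybb stood at 154, 169.6, 163 and 148 CPM in CKD and 112, 124, 128 and 123 CPM with colchicine (log2 -0.38 ± 0.07, edgeR adjusted p = 0.00587). Itgb2 stood at 106, 119, 109 and 101 CPM in CKD and 91.9, 84.0, 83.3 and 75.8 CPM with colchicine (log2 -0.37 ± 0.08, edgeR adjusted p = 0.0101). Ms4a7 stood at 32.2, 34.5, 38.3 and 37.9 CPM in CKD and 21.2, 31.1, 19.1 and 21.0 CPM with colchicine (log2 -0.63 ± 0.14, edgeR adjusted p = 0.0117). All 3 were lower in every colchicine library. At 2% labelled adenine under the slope, the calls of Csf1r, Fcgr2b, Itgb2 and Ms4a7 were lost, at -0.30, -0.42, -0.25 and -0.50, and those of Ptprc, Mpeg1 and Cybb held.

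**Figure D4:**
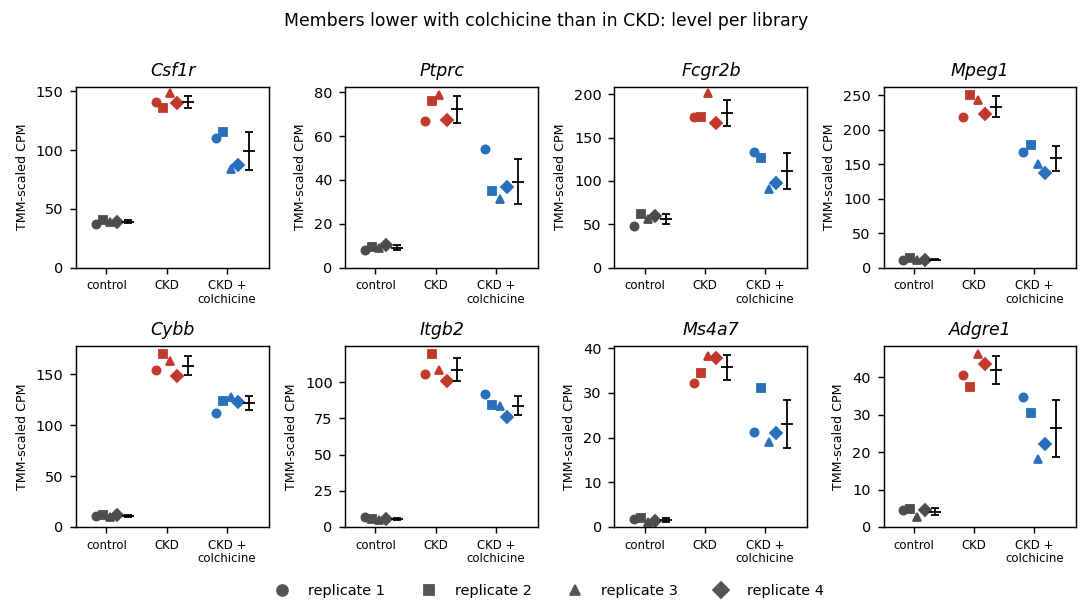
TMM-scaled CPM of 8 members called lower with colchicine than in CKD, with 1 point per library and mean ± SD beside each group. In each panel all 4 colchicine libraries lie below the 4 CKD libraries and above the 4 control libraries.

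The other 10 called members lost the call in 3 to 7 of the 8 fits that left out 1 library. Among core genes, Adgre1 stood at 40.4, 37.4, 46.1 and 43.5 CPM in CKD and 34.8, 30.5, 18.2 and 22.0 CPM with colchicine (log2 -0.67 ± 0.18), and without CKD replicate 3 its edgeR adjusted p was 0.0866. Lyz2 stood at 856, 865, 877 and 832 CPM in CKD and 602, 784, 471 and 494 CPM with colchicine (log2 -0.55 ± 0.14), with an edgeR adjusted p of 0.0602 without CKD replicate 3. Neither gene overlapped between the groups. Cd14 stood at 65.9, 69.2, 68.8 and 70.9 CPM in CKD and 64.8, 46.6, 51.9 and 49.4 CPM with colchicine (log2 -0.37 ± 0.09), with 0.0663 as the edgeR adjusted p without colchicine replicate 2. Ctss stood at 458, 518, 528 and 532 CPM in CKD and 414, 443, 376 and 374 CPM with colchicine (log2 -0.34 ± 0.10), with 0.098 without CKD replicate 3 in edgeR. These 2 decreases were small next to the rise of both genes in CKD. Cd68, Spi1 and Aif1 were the core genes without a call, at -0.26 ± 0.12, -0.06 ± 0.08 and 0.14 ± 0.16. Without colchicine replicate 2, Cd68 was called at -0.42.

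The resident receptor Mrc1 stood at 108, 88.7, 113 and 98.3 CPM in CKD and 89.3, 83.8, 47.4 and 52.4 CPM with colchicine (log2 -0.58 ± 0.17). Replicates 3 and 4 were far below CKD and replicate 1 within its range, and the edgeR adjusted p was 0.116 without CKD replicate 3. Itgax stood at 57.3, 60.2, 56.1 and 50.5 CPM in CKD and 27.0, 41.0, 49.3 and 46.3 CPM with colchicine (log2 -0.45 ± 0.14), with 0.101 as the edgeR adjusted p without CKD replicate 2. The lectin Clec7a stood at 62.3, 78.7, 78.9 and 65.2 CPM in CKD and 62.7, 52.9, 42.3 and 46.2 CPM with colchicine (log2 -0.48 ± 0.12), with an overlap through replicate 1 and an edgeR adjusted p of 0.0757 without CKD replicate 3. Clec4d stood at 25.2, 31.0, 28.1 and 24.8 CPM in CKD and 23.7, 23.1, 22.9 and 19.2 CPM with colchicine (log2 -0.29 ± 0.09). Its call was the least stable, being lost in 7 of the 8 fits, with an edgeR adjusted p of 0.138 without CKD replicate 2. The pan-leukocyte gene Cd53 stood at 69.5, 81.5, 79.3 and 70.7 CPM in CKD and 70.9, 54.4, 47.0 and 50.3 CPM with colchicine (log2 -0.44 ± 0.12), again with replicate 1 inside the CKD range and an edgeR adjusted p of 0.0796 without CKD replicate 3. Laptm5 stood at 179.7, 179, 179 and 177 CPM in CKD and 156, 166, 131 and 124 CPM with colchicine (log2 -0.31 ± 0.09), with 0.115 as the edgeR adjusted p without colchicine replicate 3. Of the 17 called members, Mrc1, Clec7a and Cd53 were those whose groups overlapped, each through colchicine replicate 1.

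Lipid-associated and adaptor genes were mostly not called between colchicine and CKD. Trem2 stood at 0.10 ± 0.19 (edgeR adjusted p = 0.741), Gpnmb at -0.30 ± 0.26 (0.452), Lilrb4a at -0.15 ± 0.09 (0.237), Fcer1g at 0.03 ± 0.13 (0.879), Tyrobp at -0.26 ± 0.14 (0.205), Fcgr1 at 0.07 ± 0.19 (0.804) and Fcgr3 at -0.42 ± 0.15 (0.0761). A p above the threshold does not show that these levels were alike. In Lilrb4a and Axl, though not called, every colchicine library lay below every CKD library, which held for 9.29% of all genes. The resident markers Cd163 (-0.996 ± 0.42), Lyve1 (-0.70 ± 0.39) and Folr2 (0.59 ± 0.36) had wide errors and were not called. Without colchicine replicate 2, Cd163 was called at -1.66. Without colchicine replicate 1, Lyve1 was called at -1.13, Fcgr3 at -0.61, Ms4a6c at -0.57, Ncf1 at -0.48 and Axl at -0.29. Timd4 had 38 counts with colchicine and 36 in CKD. The other members without a call were Ms4a6c (-0.36 ± 0.17), Clec4e (-0.30 ± 0.18), Clec4n (-0.19 ± 0.14), Ncf1 (-0.34 ± 0.12), Ncf4 (-0.15 ± 0.14), Cd52 (-0.19 ± 0.11), Mertk (-0.09 ± 0.09) and Axl (-0.26 ± 0.09).

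Relative to Csf1r, 13 of the 43 other members (30.2%) had every colchicine library above every CKD library and 0 had every library below. Over all genes the shares were 47.6% and 0.353%, so the share above was lower among the members than among all genes. Arg1 showed the largest difference, from -2.57 ± 0.24 in CKD to -0.72 ± 1.06 with colchicine, followed by Chil3, from -3.72 ± 0.28 to -2.21 ± 0.86, and Folr2, from -7.28 ± 0.85 to -6.04 ± 0.29 (mean ± SD, n = 4). Adgre1, at -1.76 ± 0.08 and -1.94 ± 0.22, and Mpeg1, at 0.73 ± 0.11 and 0.68 ± 0.11, overlapped between the groups.

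Several activation and recruitment genes had a wide spread between the colchicine libraries. Arg1 stood at 193, 64.6, 30.01 and 33.8 CPM in colchicine replicates 1, 2, 3 and 4, against 27.3, 23.6, 26.8 and 18.5 in CKD. All 4 values were above CKD and replicate 1 was the highest, and the difference was not called (log2 1.74 ± 0.55, edgeR adjusted p = 0.0598). Nor was it called by limma-voom, with RLE size factors, under library totals only, with no count filter, with the replicate block or with only the 8 libraries compared. Leaving out any CKD library or colchicine replicate 2 gave no call either (edgeR adjusted p = 0.129 without CKD replicate 3). Arg1 was called higher by DESeq2 (1.72), with a minimum count of 50 (1.75), with upper-quartile factors (1.77) and with the slope at 2% (2.67). Without replicate 1 it was called at 0.83, a smaller difference with less spread, in a fit where 15.9% of all genes were higher. Arg1 was also called without replicate 3 or replicate 4. Chil3 stood at 46.9, 32.9, 9.21 and 14.1 CPM, so replicates 1 and 2 lay far above CKD and replicate 3 at its lower end (log2 1.25 ± 0.44, edgeR adjusted p = 0.081, and 0.79 without replicate 1), and without replicate 3 it was called at 1.53. Ms4a4c stood at 10.9, 3.65, 2.76 and 4.00 CPM (log2 0.69 ± 0.34, and 0.07 without replicate 1). Itgam, at 98.7, 55.0, 50.3 and 49.5 CPM, was above all CKD libraries in replicate 1 and below them in the other 3. Its log2 fold change was -0.29 ± 0.18 over 4 libraries and -0.59 without replicate 1, when it was called. Nos2, at 6.52, 2.97, 2.40 and 2.92 CPM, was likewise above all CKD libraries in replicate 1 and below them in the other 3. Its log2 fold changes were 0.00 ± 0.27 over 4 libraries and -0.42 without replicate 1, neither called. Gpnmb stood at 78.0, 246, 225 and 173 CPM and Itgax at 27.0, 41.0, 49.3 and 46.3 CPM, both lowest in replicate 1. Without that library Gpnmb stood at -0.05 on the log2 scale. Cd163, at 3.91, 14.6, 6.93 and 2.19 CPM, was within the CKD range in replicate 2 only.

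**Figure D5:**
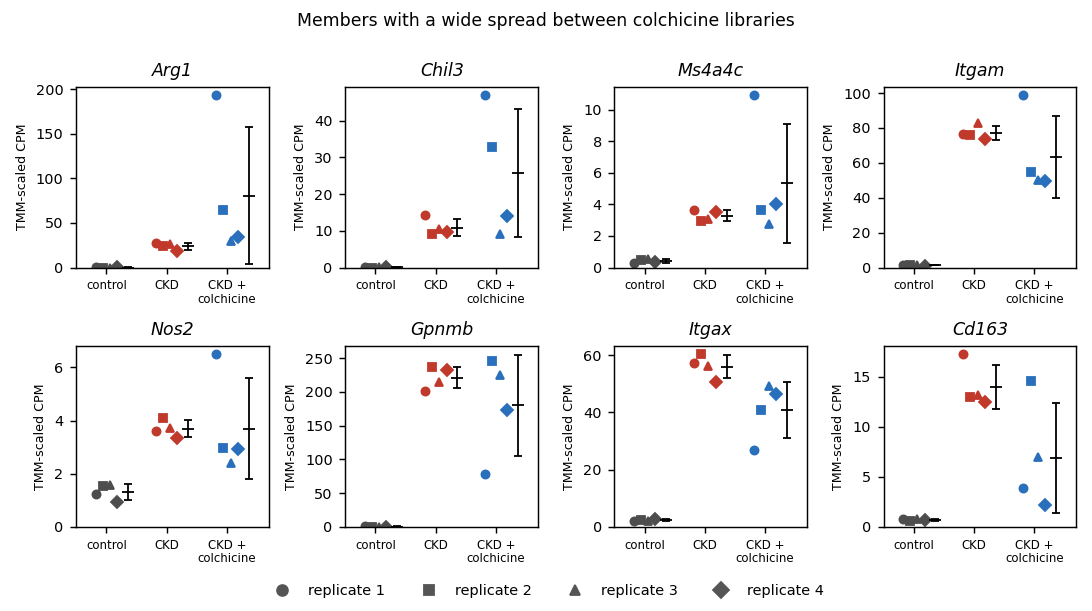
TMM-scaled CPM of 8 members, chosen after their values were seen for a wide spread between colchicine libraries, with 1 symbol per replicate and mean ± SD beside each group. Replicate 1 (circle) is the highest colchicine library for Arg1, Chil3, Ms4a4c, Itgam and Nos2 and the lowest for Gpnmb and Itgax.

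Colchicine replicate 1 is the single colchicine library with the 2% adenine label of the CKD group. Set alone against CKD, with its spread taken from the other groups, it gave 9 members lower and 4 higher, against 3.41% of all genes lower and 2.84% higher in that setting. The 4 were Arg1 (3.00 on the log2 scale), Chil3 (2.11), Ms4a4c (1.72) and Nos2 (0.81), and Gpnmb (-1.51) and Cd163 (-1.84) were among the lower genes. In that library the 13 neutrophil markers summed to 128 CPM, against 73.7, 82.6 and 55.7 in replicates 2, 3 and 4. The CKD libraries held 96.4 to 131 CPM, so replicate 1 lay within their range. The 9 further recruited monocyte genes summed to 246 CPM in replicate 1, against 134, 122 and 148 in replicates 2, 3 and 4 and 153 to 171 in CKD. Their part in the values of replicate 1 was not tested. A single library carries no replicate check.

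Further genes of the same pathways gave few calls between colchicine and CKD. Of 9 further recruited monocyte genes Ccr2 was the single call, lower at -0.64 ± 0.15 (edgeR adjusted p = 0.016, and 0.0553 without colchicine replicate 2), and Ly6c2 stood at 0.77 ± 0.41 (edgeR adjusted p = 0.206). Of 12 tested further resident genes only the transcription factor Maf was called (-0.35 ± 0.08), while Pf4 stood at 0.47 ± 0.23 (edgeR adjusted p = 0.164). Of 17 further lipid-associated genes 4 fell, including Spp1 and Mmp12, whose calls were lost in 2 and 4 of 8 fits that left out 1 library (edgeR adjusted p = 0.0757 without CKD replicate 3 and 0.0726 without colchicine replicate 2), the lysosomal lipase Lipa (-0.55 ± 0.09) and the fatty acid receptor Cd36 (-0.89 ± 0.16), and the growth factor Igf1 rose (0.40 ± 0.08). Of 19 further activation genes 3 fell, Cd86 (-0.70 ± 0.14), the lectin Mgl2 (-0.78 ± 0.18) and Irf5 (-0.42 ± 0.10). Of 12 signalling genes 3 fell, including Ptpn6 (-0.33 ± 0.07) and Vav1 (-0.44 ± 0.10). Cyba, of the oxidase, stood at 0.24 ± 0.09 and was not called (edgeR adjusted p = 0.0913). Among growth factors and chemoattractants Csf2 rose by 1.19 ± 0.33 and Il34 fell by 0.34, but the 2 calls were lost in 6 and 5 of the 8 fits that left out 1 library, with an edgeR adjusted p of 0.107 for Csf2 without CKD replicate 3 and of 0.0794 for Il34 without CKD replicate 4.

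Some dendritic and T cell markers were also lower with colchicine. Of 7 tested dendritic cell markers 5 fell, with the growth factor receptor Flt3 at -1.67 ± 0.23 and the chemokine receptor Xcr1 at -1.71 ± 0.35 (edgeR adjusted p = 0.000979 and 0.00687), and the 8 listed markers summed to 26.8 to 37.3 CPM in CKD and 19.7 to 26.4 CPM with colchicine. Of 9 tested T and NK cell markers 3 fell, including Il7r (-0.89 ± 0.14) and Cd4 (-0.75 ± 0.16), with sums of 37.8 to 54.4 and 24.5 to 31.5 CPM. These cells also express Ptprc, Cd53, Laptm5, Itgb2 and, for dendritic cells, Itgax, and their part in the lower levels of those members was not tested. Of 8 tested neutrophil markers Retnlg rose (1.37 ± 0.40) and Csf3r fell (-0.60 ± 0.16), with calls lost in 5 and 6 of 8 fits that left out 1 library (edgeR adjusted p = 0.115 without CKD replicate 3 and 0.0861 without CKD replicate 2). Of 8 fibroblast and mesangial markers 4 rose, with Col1a1 at 0.52 ± 0.10 and Gata3 at 0.44 ± 0.11, and of 8 endothelial markers 2 rose, Egfl7 (0.75 ± 0.08) and Tie1 (0.41 ± 0.07). Of 6 lymphatic endothelial markers 1 fell, Reln (-0.66 ± 0.16), while Ccl21a stood at -0.48 ± 0.16 (edgeR adjusted p = 0.0607). Of 8 proximal tubule markers 4 fell, with Aqp1 at -0.39 ± 0.10 and Cubn at -1.11 ± 0.29. Other calls in these lists that leaving out 1 library could end were those of Cd3g, Pdgfrb, Col1a2, Gata3, Reln, Cubn, Slc5a12, Slc22a6 and Aqp1, with edgeR adjusted p-values of 0.0629 (Reln, without CKD replicate 3) to 0.114 (Col1a2, without CKD replicate 4). No B and plasma cell marker of 5 tested was called by edgeR (0 higher and 1 lower at an unadjusted p below 0.05), against 1 lower by DESeq2, with Cd79b at -0.60 ± 0.23 and Cd79a at -0.56 ± 0.30. The mast cell marker Ms4a2 stood at -0.34 ± 0.35.

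The comparison of colchicine with control asks what remained different from control kidneys, and it shares libraries with both other comparisons. Of the 43 tested members 41 were higher and none was lower by edgeR, DESeq2 or limma-voom, against 37.1% of all genes higher and 33.4% lower. Under library totals only, 13762 of all genes were higher and 1953 lower, against 6612 and 5964, and under upper-quartile factors 8134 and 4849, with 43 and 41 members higher. In 40 of the 43 every colchicine library lay above every control library (32.2% of all genes) and in none below (30.3%). Relative to Csf1r, 37 of 43 members lay above control in every colchicine library (7.82% of all genes), and Folr2, Fcgr2b and Mertk, 3 members, lay below (67.3%). The 10 members that passed the count filter only through the adenine-fed libraries are among the 41, the 40 and the 37. The 2 members without a call were Folr2 (-0.01 ± 0.37, edgeR adjusted p = 0.986) and Lyve1 (0.72 ± 0.43, edgeR adjusted p = 0.146). Lyve1 stood at 0.29 without colchicine replicate 1, and was called higher without control replicate 2 (1.12), with colchicine replicate 1 alone (1.59), with the slope at 2% (1.21) and under library totals only (1.76). Of the 17 members lower than in CKD, all stayed above control, with Csf1r 2.54-fold, Ptprc 4.29-fold, Adgre1 6.35-fold and Fcgr2b 1.98-fold higher. Mertk was 1.18-fold higher (edgeR adjusted p = 0.0247), with overlap between the groups, and its call was lost in 5 of 8 fits that left out 1 library, at an edgeR adjusted p of 0.091 without colchicine replicate 2. Arg1 had a log2 fold change of 10.02 ± 1.14, and of 9.11 without colchicine replicate 1. Timd4 had 38 counts against 1, a ratio of 16.5 (95% exact binomial interval 2.79 to 670.4).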

How the data were processed

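Gene expression was measured by bulk RNA-seq in 12 mouse kidney libraries, grouped by their titles into 3 groups of 4. Per the labels' protocols, RNAiso Plus was used for extraction and CORALL for the libraries. The deposited values are gene-level estimated counts (expected counts) in whole numbers, 1 column per library. The tools listed in the submitters' processing notes are fastp, STAR and Salmon, and the build is GRCm39. Versions, annotation and handling of molecular identifiers were not given in the sources used here.

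Counts were used as deposited, with no further rounding. In edgeR 4.0.16 (R 4.3.3), genes were kept by filterByExpr at a minimum count of 10, which left 17841 genes, and libraries were scaled by TMM. A robust quasi-likelihood fit of 3 group means used all 12 libraries, and p-values were adjusted by the Benjamini-Hochberg method over all genes tested, with calls at an adjusted p below 0.05. The SE was taken as the log2 fold change divided by the square root of the F statistic. Alternatives included DESeq2 1.42.0, limma-voom 3.58.1, other scalings and filters, a 2-fold threshold, the labelled adenine, the replicate number as a block, and leaving out each library. The smallest pairwise chi-square per gene within a group was 6.78, well above sampling noise, so no library was counted as a duplicate.

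The members, gene lists and alternatives were chosen with earlier results of these data known, and no pattern is offered as independent evidence. All members are reported by role. From each further list, the 2 genes with the smallest p in CKD against control and in colchicine against CKD are named, with others named for their role or where a count was small, after their values were seen. Some genes of the further lists are not reported here, and protein sequences were not used here.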

Additional observations from a re-analysis of the deposited data

Results flagged for a closer look

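A library was singled out where its gap to the nearest of the other 3 libraries of its group was above Dixon's critical value for 4 samples as a share of their range. Of 132 sets of 4 values examined, 6 met this limit, close to the 5% that chance alone gives, and 4 of the 6 lay in colchicine replicate 1. Cd163 was highest in CKD replicate 1, at 17.2 CPM, with the other 3 libraries at 12.4 to 13.2 CPM. Timd4 was highest in control replicate 2, at 0.0509 CPM, with the other 3 libraries at 0 CPM, a difference of 1 count. Ms4a4c was highest in colchicine replicate 1, at 10.9 CPM, with the other 3 libraries at 2.76 to 4.00 CPM. Itgam was highest in colchicine replicate 1, at 98.7 CPM, with the other 3 libraries at 49.5 to 55.0 CPM. Fcer1g was lowest in colchicine replicate 1, at 112 CPM, with the other 3 libraries at 130.4 to 133 CPM. Nos2 was highest in colchicine replicate 1, at 6.52 CPM, with the other 3 libraries at 2.40 to 2.97 CPM.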

How the results depend on the processing

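Under the alternatives run, 39 to 43 members were higher and 0 lower in CKD against control, and 38 to 43 higher and 0 lower in colchicine against control. The 2-fold threshold left 4411 of all genes called in CKD against control, 4951 in colchicine against control and 5 in colchicine against CKD, with 0 members lower. Colchicine against CKD depended most on the processing. Of all genes, 1756 were called with the replicate block, 1008 with the slope on labelled adenine at 2%, 1181 with colchicine replicate 1 alone, and from 992 to 6401 without 1 library, against 2682. Members lower numbered 4 with the slope, 9 with colchicine replicate 1 alone, 14 with the replicate block, 13 with upper-quartile factors, 12 under library totals only and 7 to 23 without 1 library, against 17. Members higher numbered 3 with the slope, 4 with colchicine replicate 1 alone, 1 with DESeq2, upper-quartile factors or a minimum count of 50, and 0 to 2 without 1 library. The causes were not tested. Mpeg1 and Cybb were called lower in all 20 alternatives other than the 2-fold threshold. Same-numbered libraries did not deviate together (correlations from -0.28 to 0.19, 1 of 12 above 0.1), so the replicate block rests on a number alone. 

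Signs turned for single members 42 times, of which 41 had no call on either side. Folr2 stood at 0.42 in CKD against control under library totals only. In colchicine against control it stood at 1.03 under library totals only, 0.042 with no count filter, 0.57 with colchicine replicate 1 alone, 0.0069 with only the 8 libraries compared, 0.39 with the slope at 2% and 0.18 with upper-quartile factors, of which the value under library totals only was called (edgeR adjusted p = 0.0155), and at -0.25 to 0.12 without 1 library. In colchicine against CKD, colchicine replicate 1 alone gave Aif1 -0.026, Clec4n 0.020, Fcer1g -0.15, Fcgr3 0.0049, Itgam 0.35, Lyve1 0.13, Ms4a6c 0.11, Ncf1 0.012, Ncf4 0.063 and Trem2 -0.30. The slope gave Aif1 -0.013, Clec4n 0.14, Fcer1g -0.067, Fcgr3 0.0097, Itgam 0.14, Mertk 0.047, Ms4a6c 0.017 and Ncf4 0.087, and upper-quartile factors gave Spi1 0.00049. Nos2 stood at -0.019 with DESeq2, -0.019 with RLE size factors, -0.14 with limma-voom, -0.0037 with no count filter, -0.0048 with only the 8 libraries compared and -0.076 with the replicate block. Without 1 library, Fcgr1 ranged over -0.068 to 0.22, Nos2 over -0.42 to 0.17, Spi1 over -0.11 to 0.011 and Trem2 over -0.017 to 0.20. Depth limited Timd4, which was not tested, and the control levels of Arg1, Trem2, Chil3 and the Clec4 genes, which rest on 5 to 11 counts.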
